A study of Mus musculus with 12 samples.

Results

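The cytosolic ribosomal protein genes were followed in mouse dorsal root ganglia after sciatic nerve injury (SNI) and after a sham operation. Members were chosen by symbol alone: Rpl or Rps with a number, Rplp0, Rplp1, Rplp2 and Rpsa, with rows named as pseudogenes left out. This gave 84 of the 23238 gene symbols in the files, 51 for the large and 33 for the small ribosomal subunit. All groups were C57BL/6 mice aged 8 weeks after birth, with no other genotype given, and the tissue was the ganglia of lumbar levels 3 to 5. The 4 groups were female sham, female SNI, male sham and male SNI, with 3 libraries each. The time between operation and dissection, the kind of injury, the side taken and any pooling of animals are not given in the labels. Polyadenylated RNA was read at transcript 3′ ends (QuantSeq) and deposited as raw counts per symbol. Nothing in the labels says that libraries of a group came from separate animals, so the p-values speak only of spread among these libraries, part or all of which may be technical.

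A cytosolic ribosome has a small subunit, which decodes the messenger RNA, and a large subunit, which joins the amino acids. Each holds ribosomal RNA and a single copy of most of its proteins, so their genes are usually expressed in balance. Their messenger RNAs typically begin with a run of pyrimidines, the TOP tract, through which mTOR signalling adjusts their translation. Sensory neurons make ribosomal proteins in large amounts in the cell body and also carry their messenger RNAs into the axon, where they are known to be translated after injury.

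The start of these transcripts is shown first, because the TOP tract is the sequence feature for which the family is known. RefSeq promoter windows (GRCm38.p6, 250 bases before to 50 after the annotated start) were found for 63 of the 84 members, 75 windows in all. A tract was defined as a C followed by at least 4 bases that are each C or T, on the transcript's strand. It began exactly at the annotated start in 13 of the 75 windows (17.3%), against 823 of all 32851 windows (2.51%) and 0 of 74 windows of mitochondrial ribosomal protein genes. Allowing up to 5 bases on either side, 31 member windows (41.3%) and 18.3% of all windows held one. So did 17 of the 74 mitochondrial ribosomal protein windows (23.0%). The windows below run from 20 bases before the start to 10 bases from it. They were picked for genes that the results name or that differ in their change after injury, and capitals mark the tract.
Rpl35, chr2:39005122-39005151, minus strand: gaagtcggccccgccctttcCTCTTTCTCT
Rplp2, chr7:141447631-141447660, plus strand: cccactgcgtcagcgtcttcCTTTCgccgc
Rpl15, chr14:18270977-18271006, minus strand: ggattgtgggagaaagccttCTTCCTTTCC
Rps6, chr4:86857358-86857387, minus strand: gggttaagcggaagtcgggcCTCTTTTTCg
Rpl28, chr7:4792945-4792974, plus strand: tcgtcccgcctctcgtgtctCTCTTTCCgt
Rps27, chr3:90213639-90213668, minus strand: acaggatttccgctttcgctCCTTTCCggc
Rps21, chr2:180257359-180257388, plus strand: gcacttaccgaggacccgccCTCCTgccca
Rplp0, chr5:115559447-115559476, plus strand: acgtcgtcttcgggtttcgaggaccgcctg
Rpl41, chr10:128549159-128549188, minus strand: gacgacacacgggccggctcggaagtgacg
The first 7 begin a tract at the annotated start, while Rplp0 and Rpl41 hold none within 5 bases of it. Tracts at the start are thus far more frequent here than among all member windows (13 of 75), and the printed windows do not represent the family. These letters say where RefSeq places the start, and a start placed a few bases away would change the match. Rpl35 stands among the highest changes reported here, and Rpl28, Rps27 and Rps21 among the lowest. The median log2 change after injury, averaged over the sexes, was 0.17 over the 29 genes with a tract within 5 bases. It was 0.18 over those of the 34 genes without a tract that had enough counts to be tested. Rpl10l and Rpl39l did not, and Rpl3l, with few counts, is included.

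The libraries held 12476606 to 15520746 counts, and 3 counts correspond to 0.191 to 0.244 CPM (counts relative to a common library total, scaled by edgeR's TMM factors), the level scale used throughout. Sensory neuron, satellite glia and Schwann cell markers were present in every library. The injury-induced transcription factor Atf3 stood at 275 to 361 CPM in SNI libraries and 43.6 to 56.7 in sham libraries. Of 10 macrophage markers 9 passed the test for a rise (background 3.78% higher), with summed levels of 248 to 443 CPM after SNI and 111 to 181 after sham. None of the 10 was at 0 in any library. Of 10 sensory neuron markers 3 passed the test for a fall and none for a rise (background 6.52% in either direction), and 2 had a change above 0. Their sums were 15301 to 21337 CPM after SNI and 17054 to 21391 after sham. Without Male SNI library 2 and Female sham library 2, 5 neuron markers were called lower and 1 higher (background 12.1%), and 10 macrophage markers higher. Limma with quality weights called 6 neuron markers lower and 1 higher (background 13.4%). In such bulk tissue, fewer cells of a type and less RNA per cell cannot be told apart, and the part of these markers in the results was not tested. Male SNI library 2 stood apart from the other libraries, and Female sham library 2 less so. Values without them are given where a call, a direction or a count depends on them.

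Ribosomal protein messenger RNA took 1.28 to 1.57% of all counts. The large subunit genes summed to 7721, 8943 and 8238 CPM in the female sham libraries and 8875, 8551 and 8733 in the female SNI libraries. In males they summed to 7831, 7781 and 7646 after sham and 9719, 10416 and 8134 after SNI. Every male SNI library was therefore above every male sham library, while in females the second sham library was above all 3 SNI libraries. The mean after SNI was 21.5% above sham in males (15.1% without Male SNI library 2) and 5.05% in females (9.28% without Female sham library 2).

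The small subunit genes summed to 4811, 5366 and 5018 CPM in the female sham libraries and 5715, 5381 and 5389.8 in the female SNI libraries. In males they summed to 4921, 4937 and 4827 after sham and 6234, 5924 and 5194 after SNI. The groups did not overlap in either sex. Their mean was 18.2% higher after SNI in males (16.7% without Male SNI library 2) and 8.49% higher in females (11.8% without Female sham library 2). The large to small ratio of the sums was 1.55 to 1.67 in 11 libraries and 1.76 in Male SNI library 2. These sums are descriptions and carry no test.

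**Figure D1:**
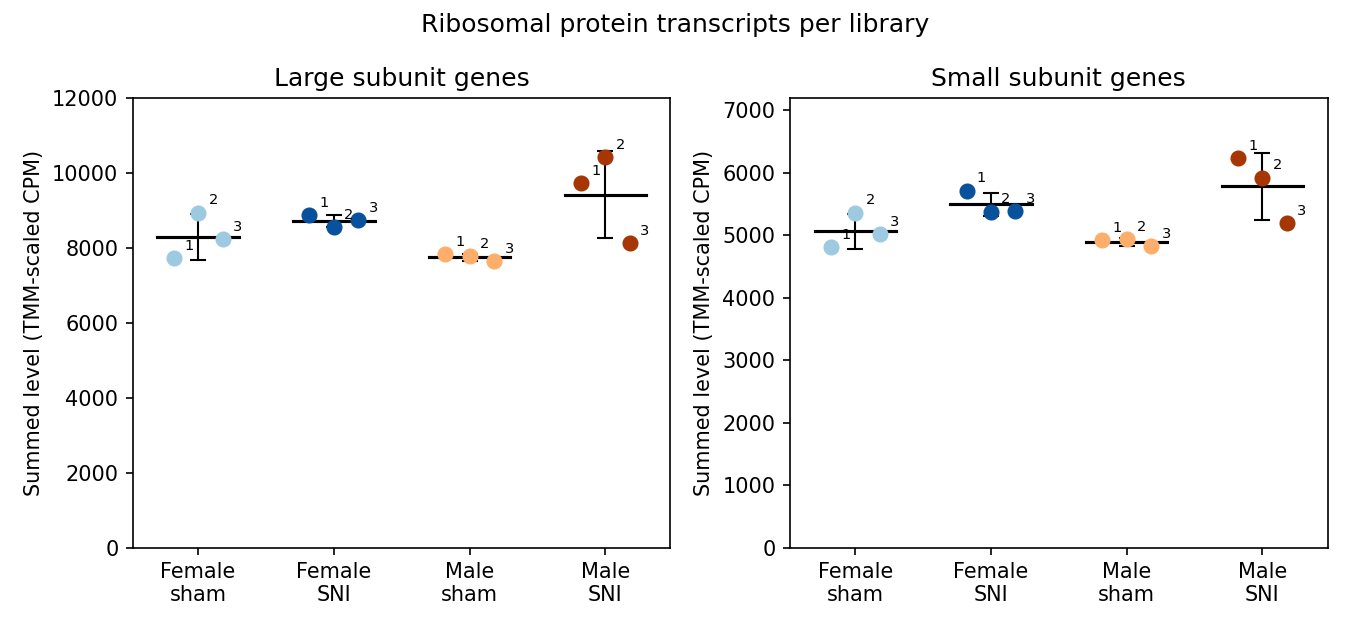
Summed TMM-scaled CPM of the large (left) and small (right) subunit genes, 1 point per library with its replicate number, by group; bars mark the group mean and SD of 3 libraries. All 3 male SNI libraries lie above all male sham libraries in both panels, and Female sham library 2 overlaps the female SNI libraries for the large subunit.

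Gene by gene, most members stood somewhat higher after SNI, and few passed the test. Of the 84 members 82 had enough counts to be tested, and 76 of them (92.7%) had a log2 change above 0 for injury averaged over the sexes, against 50.5% of all 15036 genes tested. Their median change was 0.18, against 0.00 for all genes. It was 0.18 over the 49 large subunit genes tested and 0.19 over the 33 small subunit genes. Rpl3l passed the filter on low counts mainly through SNI libraries, and over the 81 members with a mean of at least 5 CPM, all of them tested, the median was also 0.18. The 6 changes below 0 were small, and 5 of them (all but Rpl3) turned above 0 in at least 1 alternative fit. With edgeR's quasi-likelihood test and an adjusted p below 0.05, 1 of 82 members was called, Rplp0, against a background of 6.52% of all genes tested in either direction and 3.78% higher. At an unadjusted p below 0.05 there were 23, all higher after SNI, against a background of 18.4% in either direction and 9.78% higher. Of these, 22 had a mean of at least 5 CPM, and the other was Rpl3l. The share of adjusted calls was therefore below the background, and the share at the unadjusted threshold above it.

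The number of calls depended on 2 libraries. Without Male SNI library 2 there were 12 calls (background 11.5%). Without it and Female sham library 2 there were 19, 9 large and 10 small, all higher, against a background of 12.1% in either direction and 6.69% higher. The 9 large subunit calls were Rplp0, Rpl5, Rpl13, Rpl15, Rpl22l1, Rpl35, Rpl39, Rpl41 and Rpl3l, and the 10 small subunit calls were Rps2, Rps3, Rps4x, Rps14, Rps15a, Rps23, Rps24, Rps27a, Rps27l and Rps29. Of these 19, 18 had a mean of at least 5 CPM; the exception, Rpl3l, passed the filter on low counts mainly through SNI libraries, so nothing is read from its call. These genes were listed after their values were seen. The median change was then 0.19, with 77 of 82 members above 0. Weighting libraries by their quality in limma voom also gave 19 calls, all higher (background 13.4%, and 6.82% higher), 15 of them shared with the fit without the 2 libraries, and DESeq2 gave 2 (background 9.21%).

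**Figure D2:**
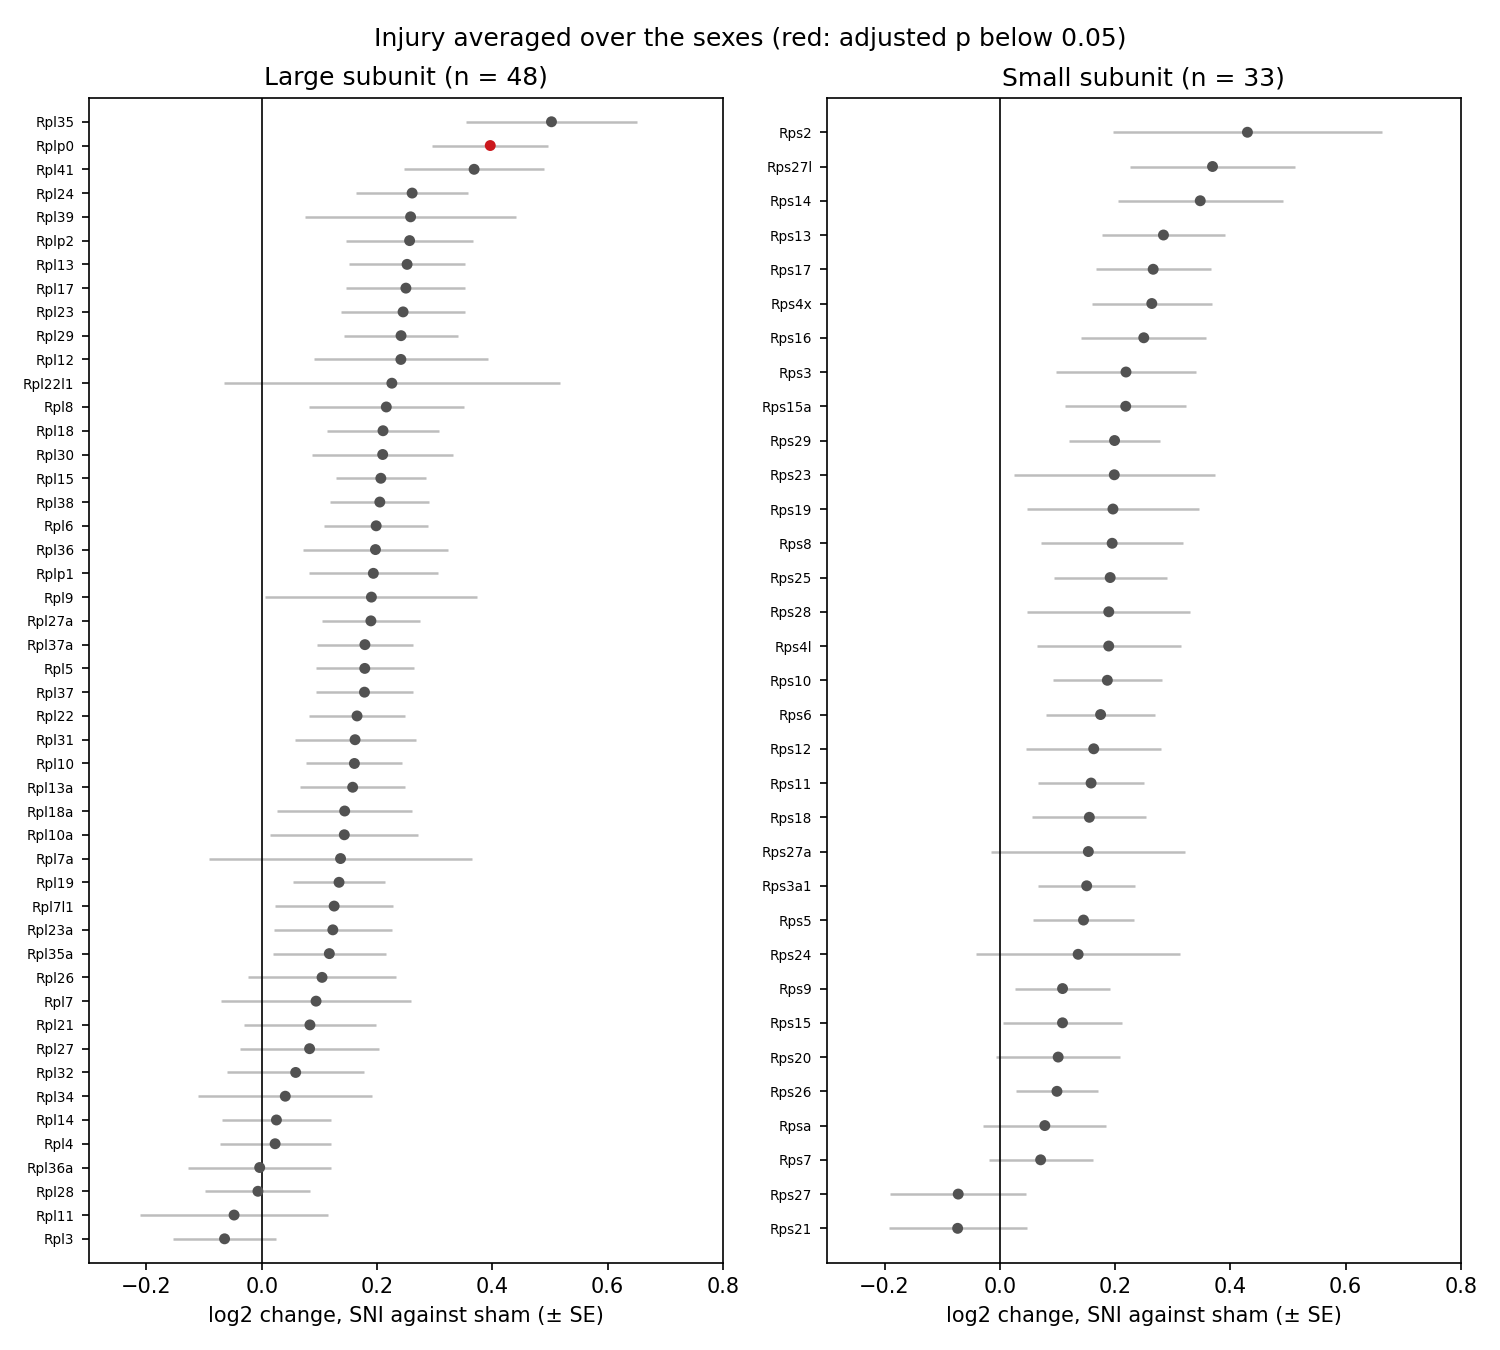
Log2 change after SNI averaged over the sexes for each of the 81 members with a mean of at least 5 CPM, large subunit left and small subunit right; points are edgeR estimates, lines ± 1 SE, red an adjusted p below 0.05. All but 6 members (Rpl3, Rpl11, Rpl28, Rpl36a, Rps21, Rps27) lie above 0, and Rplp0 alone is red; of the 6, all but Rpl3 turn above 0 in some alternative fit.

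The stalk of the large subunit recruits translation factors and is built from Rplp0, its base, and the acidic proteins Rplp1 and Rplp2. Rplp0 (chr5:115559467-115563729) measured 163, 195 and 182 CPM in the female sham libraries, 224, 215 and 215 after SNI in females, 168, 166 and 158 in the male sham libraries and 217, 294 and 193 after SNI in males. Within each sex every SNI library was above every sham library, and Male SNI library 2 was the highest of all. Rplp0 rose by 0.40 ± 0.10 (log2 ± SE, adjusted p = 0.030 by edgeR), with 0.28 ± 0.14 in females and 0.52 ± 0.14 in males. It lost its call in 8 of the 12 fits that each left out a library (adjusted p 0.065 to 0.081), namely without any 1 of the female SNI or male sham libraries or Female sham library 1 or 3. It was called in 14 of the 22 alternative fits, and its change stayed positive in all of them.

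Rplp1 measured 1144, 1462 and 1224 CPM in the female sham libraries, 1290.5, 1255 and 1255 after SNI in females, 1155, 1159.8 and 1102 in the male sham libraries and 1488, 1888 and 1130.1 after SNI in males. The female groups overlapped, and Male SNI library 3 lay within the male sham range while the other male SNI libraries were above it. Its change was 0.19 ± 0.11 (adjusted p = 0.41 by edgeR), and 0.099 without Male SNI library 2. Rplp2 measured 246, 322 and 289 CPM in the female sham libraries, 311, 299 and 297 after SNI in females, 265, 273 and 229.9 in the male sham libraries and 314, 437 and 286 after SNI in males. Its SNI libraries were all above sham in males and overlapped sham in females. Its change was 0.26 ± 0.11 (adjusted p = 0.22), and 0.16 without Male SNI library 2. A pseudogene row, Rplp2-ps1, held more counts than Rplp2 itself (mean 600.0 against 297 CPM), and the labels do not say how reads were shared between copies.

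Among the other large subunit genes with a mean of at least 5 CPM the highest change was that of Rpl35, which sits at the exit of the peptide tunnel and whose tract is printed above. Rpl35 (chr2:39001581-39005131) measured 118, 180.0 and 138 CPM in the female sham libraries, 170.4, 164 and 167 after SNI in females, 105, 113 and 133 in the male sham libraries and 187, 282 and 146 after SNI in males. All male SNI libraries were above male sham, Male SNI library 2 by the widest margin, and in females the second sham library was above all SNI libraries. Its change was 0.50 ± 0.15 (adjusted p = 0.062 by edgeR), and 0.36 without Male SNI library 2, where it passed the test (adjusted p = 0.036). Its exons overlap Arpc5l and Wdr38 on the opposite strand, and the strand setting of the counting is not given, so its value is uncertain. Rpl41, a very short protein of the large subunit, measured 353, 466 and 393 CPM in the female sham libraries, 447, 451 and 419 after SNI in females, 345, 339.9 and 331 in the male sham libraries and 476, 689 and 394 after SNI in males. Its male groups did not overlap and its female groups did. Its change was 0.37 ± 0.12 (adjusted p = 0.097). It passed the test without Male SNI library 2 and Female sham library 2 (0.30, adjusted p = 0.0063) and without Male SNI library 3 (0.45, adjusted p = 0.021).

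Rpl22, an RNA-binding protein of the large subunit, was with Rplp1 and Rpl41 among the 3 members of that subunit with the most counts. It measured 336, 367 and 372 CPM in the female sham libraries, 422, 458 and 408 after SNI in females, 402, 389 and 365 in the male sham libraries and 469.6, 363 and 380.2 after SNI in males. Here the female groups were apart and the male groups overlapped. Its change was 0.17 ± 0.08 (adjusted p = 0.32 by edgeR). The lowest changes in the large subunit belonged to Rpl3, which lies near the peptidyl transferase centre, at -0.06 ± 0.09, to Rpl11, which forms a particle with 5S ribosomal RNA and can bind Mdm2, at -0.05 ± 0.16, and to Rpl28 at -0.01 ± 0.09. None of these passed the test (adjusted p 0.79 to 0.99), and Rpl11 and Rpl28 turned above 0 in some alternative fits (Rpl11 read 0.09 without Male SNI library 2). Rpl28 measured 149, 169.9 and 160.2 CPM in the female sham libraries, 136, 132 and 134 after SNI in females, 123, 148 and 109 in the male sham libraries and 146, 165 and 137 after SNI in males. It was 1 of the 2 members, with Rps27, whose SNI libraries were all below sham in females.

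In the small subunit edgeR called no member (background 6.52%) and DESeq2 none (background 9.21%). By edgeR 7 of 33 had an unadjusted p below 0.05, all higher (background 18.4%, and 9.78% higher). Limma with quality weights called 9 of the 33 (background 13.4%, and 6.82% higher). The highest change was that of Rps2, a protein near the entry of the messenger RNA channel. Rps2 (chr17:24718121-24721927) measured 57.9, 31.9 and 39.2 CPM in the female sham libraries, 78.6, 88.9 and 69.8 after SNI in females, 51.3, 57.1 and 64.1 in the male sham libraries and 61.9, 24.1 and 84.0 after SNI in males. The female groups were apart, and in males the second SNI library was the lowest of all 12 while the third was the second highest. Its change was 0.43 ± 0.23 (adjusted p = 0.37 by edgeR), with 0.88 ± 0.33 in females and -0.02 ± 0.33 in males. Without Male SNI library 2 it was 0.62 and passed the test (adjusted p = 0.0062). At least 75 of the last 150 bases of its transcript matched 29 other annotated genes at 98% or more, the most of any member. Its exons also overlap Snhg9 on the opposite strand, so its count is uncertain.

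The small subunit genes with the most counts were Rps14, Rps20 and Rps9, of the platform, head and body of the subunit. Rps14 measured 434, 656 and 488 CPM in the female sham libraries, 675, 573 and 509 after SNI in females, 512, 541 and 437 in the male sham libraries and 703, 939.6 and 525 after SNI in males. Both sexes overlapped, with Male SNI library 2 far above the rest. Its change was 0.35 ± 0.14 (adjusted p = 0.20 by edgeR), among the 3 highest of the subunit, and 0.33 with a call without the 2 libraries that stand apart (adjusted p = 0.023). Rps20 differed by 0.10 ± 0.11 and Rps9 by 0.11 ± 0.08, and neither passed (adjusted p 0.71 and 0.56). The lowest changes were those of Rps21 (-0.07 ± 0.12) and of Rps27, a zinc finger protein (-0.07 ± 0.12), followed by Rps7 (0.07 ± 0.09), with adjusted p from 0.77 to 0.83. Rps21 measured 118, 81.9 and 91.9 CPM in the female sham libraries, 93.8, 89.0 and 98.2 after SNI in females, 95.3, 96.5 and 84.3 in the male sham libraries and 105, 66.6 and 87.0 after SNI in males, with both sexes overlapping.

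Rpsa, which is also known as a laminin receptor, differed by 0.08 ± 0.11 (adjusted p = 0.79 by edgeR). Rps27a, made as a fusion with ubiquitin, differed by 0.15 ± 0.17 with a Male SNI library 2 value of 85.6 CPM, the lowest of all 12. Without that library and Female sham library 2 its change was 0.33 (adjusted p = 0.038). Rpl36a, an X-linked large subunit gene, differed by -0.00 ± 0.12 (adjusted p = 0.996). Rps6, the small subunit protein phosphorylated by S6 kinase, stood at 69.8, 70.5 and 62.5 CPM in the female sham libraries, 84.4, 78.1 and 75.5 after SNI in females, 71.6, 66.3 and 83.8 in the male sham libraries and 85.3, 68.9 and 86.4 after SNI in males. Its female groups were apart, and its change was 0.17 ± 0.09 (adjusted p = 0.37). Rps6 was added for its known role after its values were seen.

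Several ribosomal proteins have a related gene, a paralog, whose product in some cases can take the place of the core protein. Of the 7 paralogs looked at, Rpl10l held at most 1 count and Rpl39l at most 14 in a library, so neither was tested. Rpl22l1 measured 95.3, 62.1 and 78.2 CPM in the female sham libraries, 136, 141 and 108 after SNI in females, 108, 117 and 121 in the male sham libraries and 133, 24.4 and 132 after SNI in males. The female groups were apart, and Male SNI library 2 was far below all other libraries. The change of Rpl22l1 was 0.23 ± 0.29 (adjusted p = 0.77 by edgeR) and, without Male SNI library 2, 0.46 with a call (adjusted p = 0.0072). Its core partner Rpl22, given above, differed by 0.17 ± 0.08.

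Rps27l, a paralog known to respond to p53, measured 41.9, 31.9 and 34.2 CPM in the female sham libraries, 61.7, 54.7 and 42.0 after SNI in females, 36.0, 36.7 and 43.5 in the male sham libraries and 47.6, 31.7 and 52.9 after SNI in males. Female SNI libraries were all above sham, by a small margin for library 3, and Male SNI library 2 was below all male sham libraries. Its change was 0.37 ± 0.14 (adjusted p = 0.17 by edgeR), and 0.47 with a call without Male SNI library 2 (adjusted p = 0.014). That of Rps27 was -0.07 ± 0.12. Rps27 itself measured 57.8, 59.7 and 64.4 CPM in the female sham libraries, 51.8, 44.9 and 53.2 after SNI in females, 52.5, 55.0 and 47.2 in the male sham libraries and 65.9, 62.8 and 41.4 after SNI in males. Without Male SNI library 3 the change of Rps27 was 0.02, and the difference between paralog and core gene was not tested.

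Rpl7l1, which acts in ribosome assembly, differed by 0.13 ± 0.10 and Rpl7 by 0.09 ± 0.16. Rps4l differed by 0.19 ± 0.13 and its X-linked partner Rps4x by 0.26 ± 0.10. None of these 4 passed the test by edgeR (adjusted p 0.18 to 0.85). Without the 2 libraries that stand apart Rps4x did (0.26, adjusted p = 0.031). Rpl39 differed by 0.26 ± 0.18 (adjusted p = 0.52), with 0.43 and a call without Male SNI library 2 (adjusted p = 0.0027). Rpl10, partner of the barely detected Rpl10l, differed by 0.16 ± 0.08 (adjusted p = 0.34).

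Rpl3l, a paralog of Rpl3 known from skeletal and heart muscle, had 86 counts (6.99 CPM) in Male SNI library 1 and at most 22 in any other library. In Male SNI library 1 the 6 skeletal muscle markers summed to 1139 CPM, with Acta1 at 445 CPM. In the other 11 libraries they summed to 4.72 to 57.3 CPM. None of the 6 was called for the averaged injury change by edgeR, DESeq2 or limma, and all 6 had an unadjusted p below 0.05 by edgeR. Without Male SNI library 2 and Female sham library 2 edgeR called 5 of the 6 higher (background 6.69% higher). Rpl3l was also called there, but it passed the filter on low counts mainly through SNI libraries, so nothing is read from its call. The part of muscle transcripts in the Rpl3l value was not tested.

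**Figure D3:**
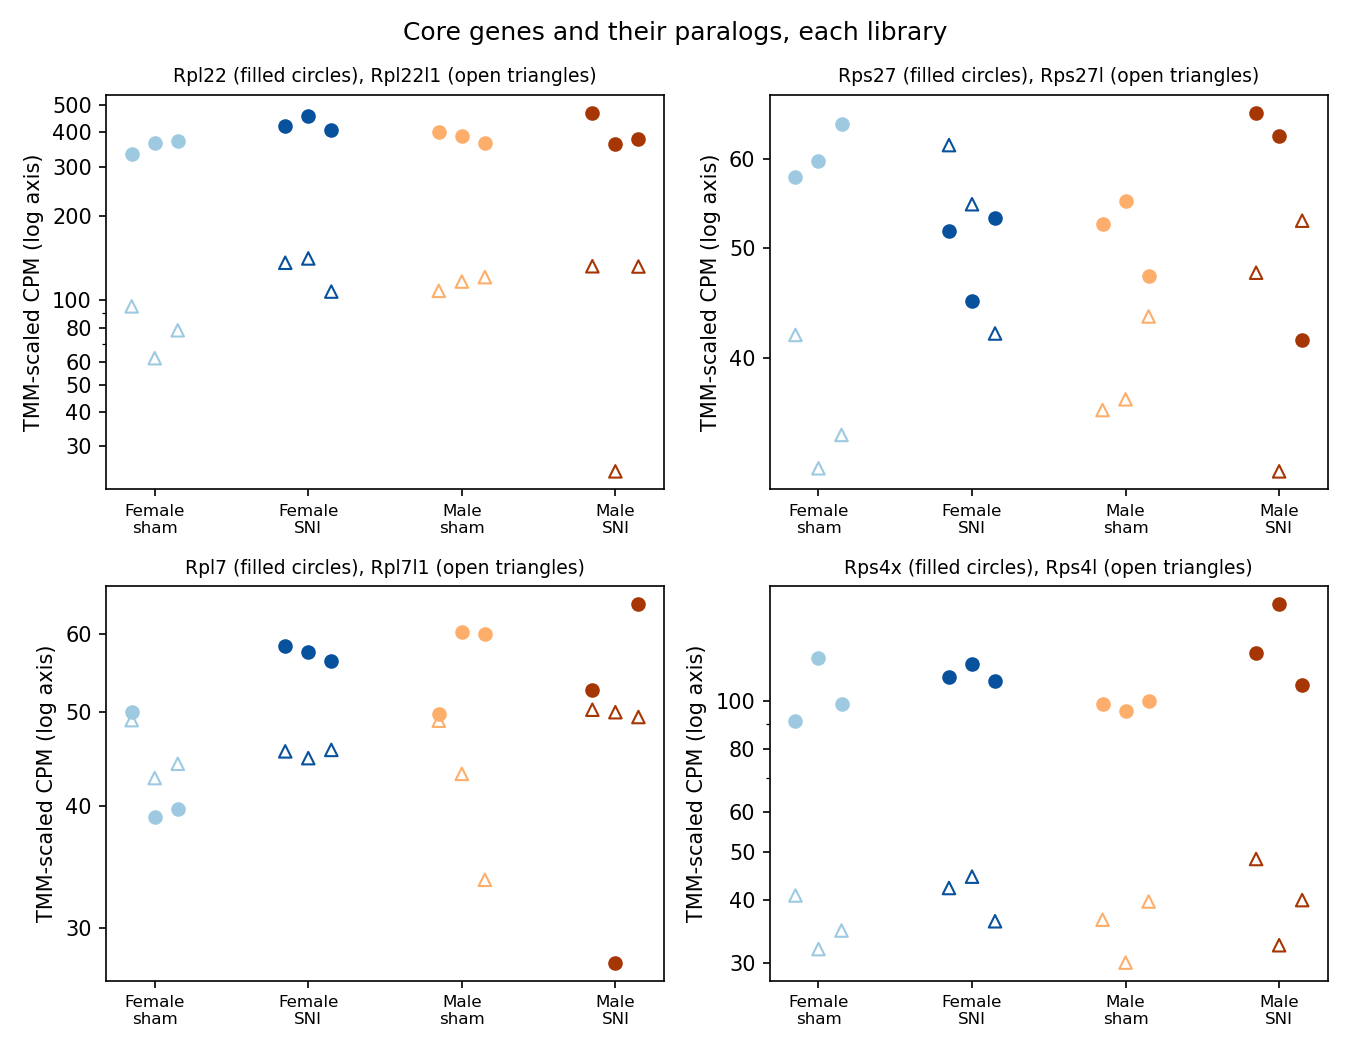
TMM-scaled CPM (log axes) of 4 core genes (filled circles) and their paralogs (open triangles), 1 symbol per library, replicates 1 to 3 from left to right within each group. Male SNI library 2 has the lowest Rpl22l1, Rps27l and Rpl7 values of all libraries, and the female SNI values of Rpl22l1 and Rps27l lie above female sham.

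In females no member was called by edgeR for injury, against a background of 2.89%. There were 8 at an unadjusted p below 0.05, all higher (background 15.2%, and 7.28% higher), while DESeq2 called 0 (background 5.17%) and limma with quality weights 8 (background 10.4%). In males no member was called (background 2.13%), and 27 had an unadjusted p below 0.05, all higher (background 14.5%, and 8.98% higher). Of the 27, 26 had a mean of at least 5 CPM, and the other was Rpl3l. In males DESeq2 called 4 (background 4.43%) and limma 4 (background 4.61%). The DESeq2 calls were Rpl35, Rpl38, Rpl41 and Rplp0. The median change was 0.11 in females and 0.25 in males, with 62 and 70 of 82 members above 0. All genes tested had medians of 0.01 and -0.00. Without the 2 libraries that stand apart the medians were 0.15 and 0.21, with 70 and 82 of 82 members above 0. The male SNI group then held only libraries 1 and 3. At a mean of at least 5 CPM there were 48 large and 33 small subunit members. Male SNI library 1 was above the mean of the 12 libraries for 46 and 33 of them. Male SNI library 3 was above it for 22 and 15. Without Male SNI library 1 the median for injury averaged over the sexes was 0.14, the lowest of the alternatives. That library also held the high muscle marker sum given above, whose part here was not tested.

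By subunit, the large subunit genes had a median of 0.10 in females and 0.26 in males, and the small subunit genes 0.13 and 0.18. Without the 2 libraries the large subunit medians were 0.14 and 0.21 and the small subunit medians 0.18 and 0.23, so the order of the subunits in males turned. No sex by injury interaction was called for any member by edgeR, DESeq2 or limma, and edgeR called none for any gene (background 0.0%). By edgeR 3 members had an unadjusted p below 0.05 against a background of 7.32%. These 3 were Rpl14, Rpl28 and Rpl38, named because they were so few, with a change in males minus that in females of 0.48 ± 0.19, 0.49 ± 0.18 and 0.44 ± 0.17 (adjusted p = 0.65 each by edgeR). A p that misses the threshold does not show that the sexes respond alike. Between the sham groups no member was called by edgeR (background 0.0399%), and 3 had an unadjusted p below 0.05 (background 4.58%). DESeq2 (background 0.0798%) and limma (background 0.0599%) called none. The median male minus female difference in sham was -0.07, and -0.022 without the 2 libraries.

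Every SNI library was above every sham library for 21 of 82 members in females (25.6%, background 13.1%), 12 large and 9 small. In males this held for 21 of 82 (25.6%, background 9.09%), 17 large and 4 small. Without Female sham library 2 the female count was 40 (48.8%, background 17.9%), and without Male SNI library 2 the male count was 40 (48.8%, background 15.2%). Rpl3l, which passed the filter on low counts mainly through SNI libraries, is in both male counts, which are 20 and 39 without it. With all libraries both sexes shared 2 of these genes, Rplp0 and Rpl6 (2.44%, background 3.67%). Rpl6, a large subunit protein, was named because the count was so small. It measured 207, 234 and 209.7 CPM in the female sham libraries, 239, 242 and 241 after SNI in females, 214, 209 and 215 in the male sham libraries and 219.7, 306 and 231 after SNI in males. Its change was 0.20 ± 0.09 (adjusted p = 0.25 by edgeR). The reverse, every SNI library below every sham library, held for Rpl28 and Rps27 in females (background 13.4%) and for none in males (background 8.83%) or in both sexes (background 2.82%).

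**Figure D4:**
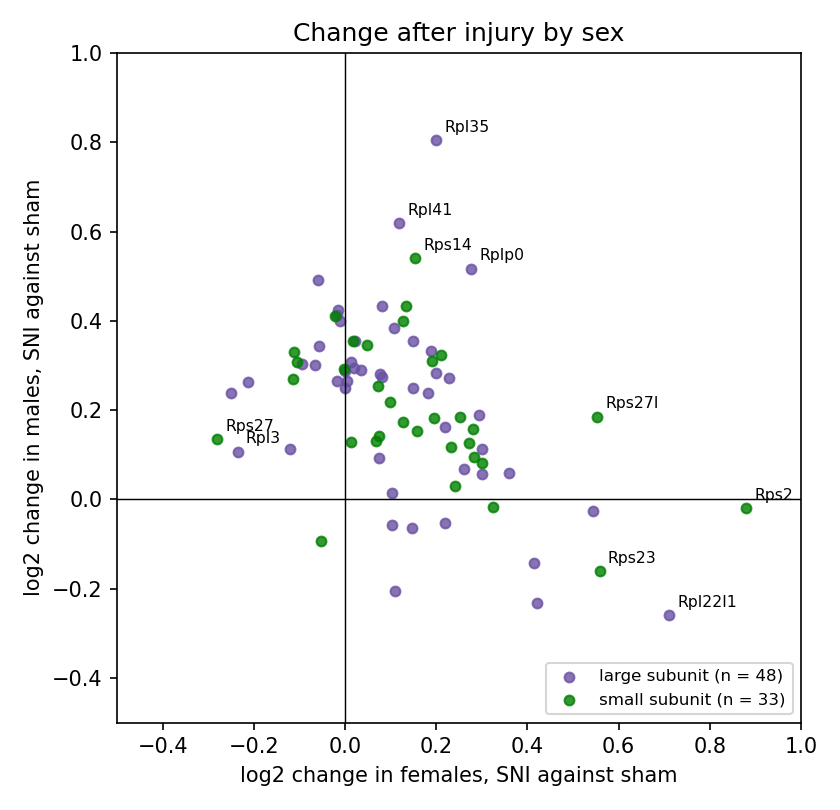
Log2 change after SNI in females (horizontal) and in males (vertical) for the 81 members with a mean of at least 5 CPM, large subunit purple and small subunit green, with the most distant genes named. Most points lie right of and above 0; Rpl35, Rpl41 and Rps14 lie high in males, while Rps2, Rps23 and Rpl22l1 lie high in females and below 0 in males. Without Male SNI library 2 these 3 read 0.35, 0.16 and 0.20 in males, all above 0.

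Members differed most between libraries in Male SNI library 2. The interquartile range of the members' log2(CPM + 0.5) around each gene's mean over the 12 libraries was 0.66 there and 0.12 to 0.30 elsewhere. For other genes at 20 to 1500 CPM it was 0.70 there. Of 81 members this library was the highest of 12 for 35 and the lowest for 21, against 32.1% and 25.3% of the other genes. Among the high values were Rpl35, Rpl8, Rps14 and Rpl41. Rpl8 read 473 CPM there, against 312 and 244 in the other male SNI libraries. Among the low values were Rpl22l1, Rps2, Rpl7a, Rpl39 and Rps23. Rps23 read 42.6 CPM there, against 107 and 103. The members named in this paragraph were chosen after their values were seen.

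Female sham library 2 deviated from its group in the same direction as Male SNI library 2 for 66 of 81 members (81.5%), against 78.2% of 6651 other genes. Across the 81 members Pearson's r of these deviations was 0.77, and across the other genes 0.79; genes of a library share its preparation and depth and are not independent. Members with a GC-rich transcript read high in Male SNI library 2. Of the 26 members with the highest GC content (54.0 to 60.8%), 18 were above the mean of the other male SNI libraries, and of the 26 with the lowest (40.6 to 49.2%), 9 were. Across 80 members r between GC content and this deviation was 0.35, and between GC content and the change after injury 0.12. Transcript length showed r of 0.00 with either across these members. Across 6372 other genes r between GC content and the Male SNI library 2 deviation was 0.19. Between GC content and the change after injury it was 0.077 in those genes. The relation of GC content to this library was therefore also present outside the ribosomal protein genes, with a lower Pearson's r. For the GC content of the last 300 bases Pearson's r was 0.36 in members and 0.26 in the other genes. Spearman's rank correlation for those bases was 0.31 and 0.34, so the order depended on the measure. The part of GC content in the results was not tested.

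**Figure D5:**
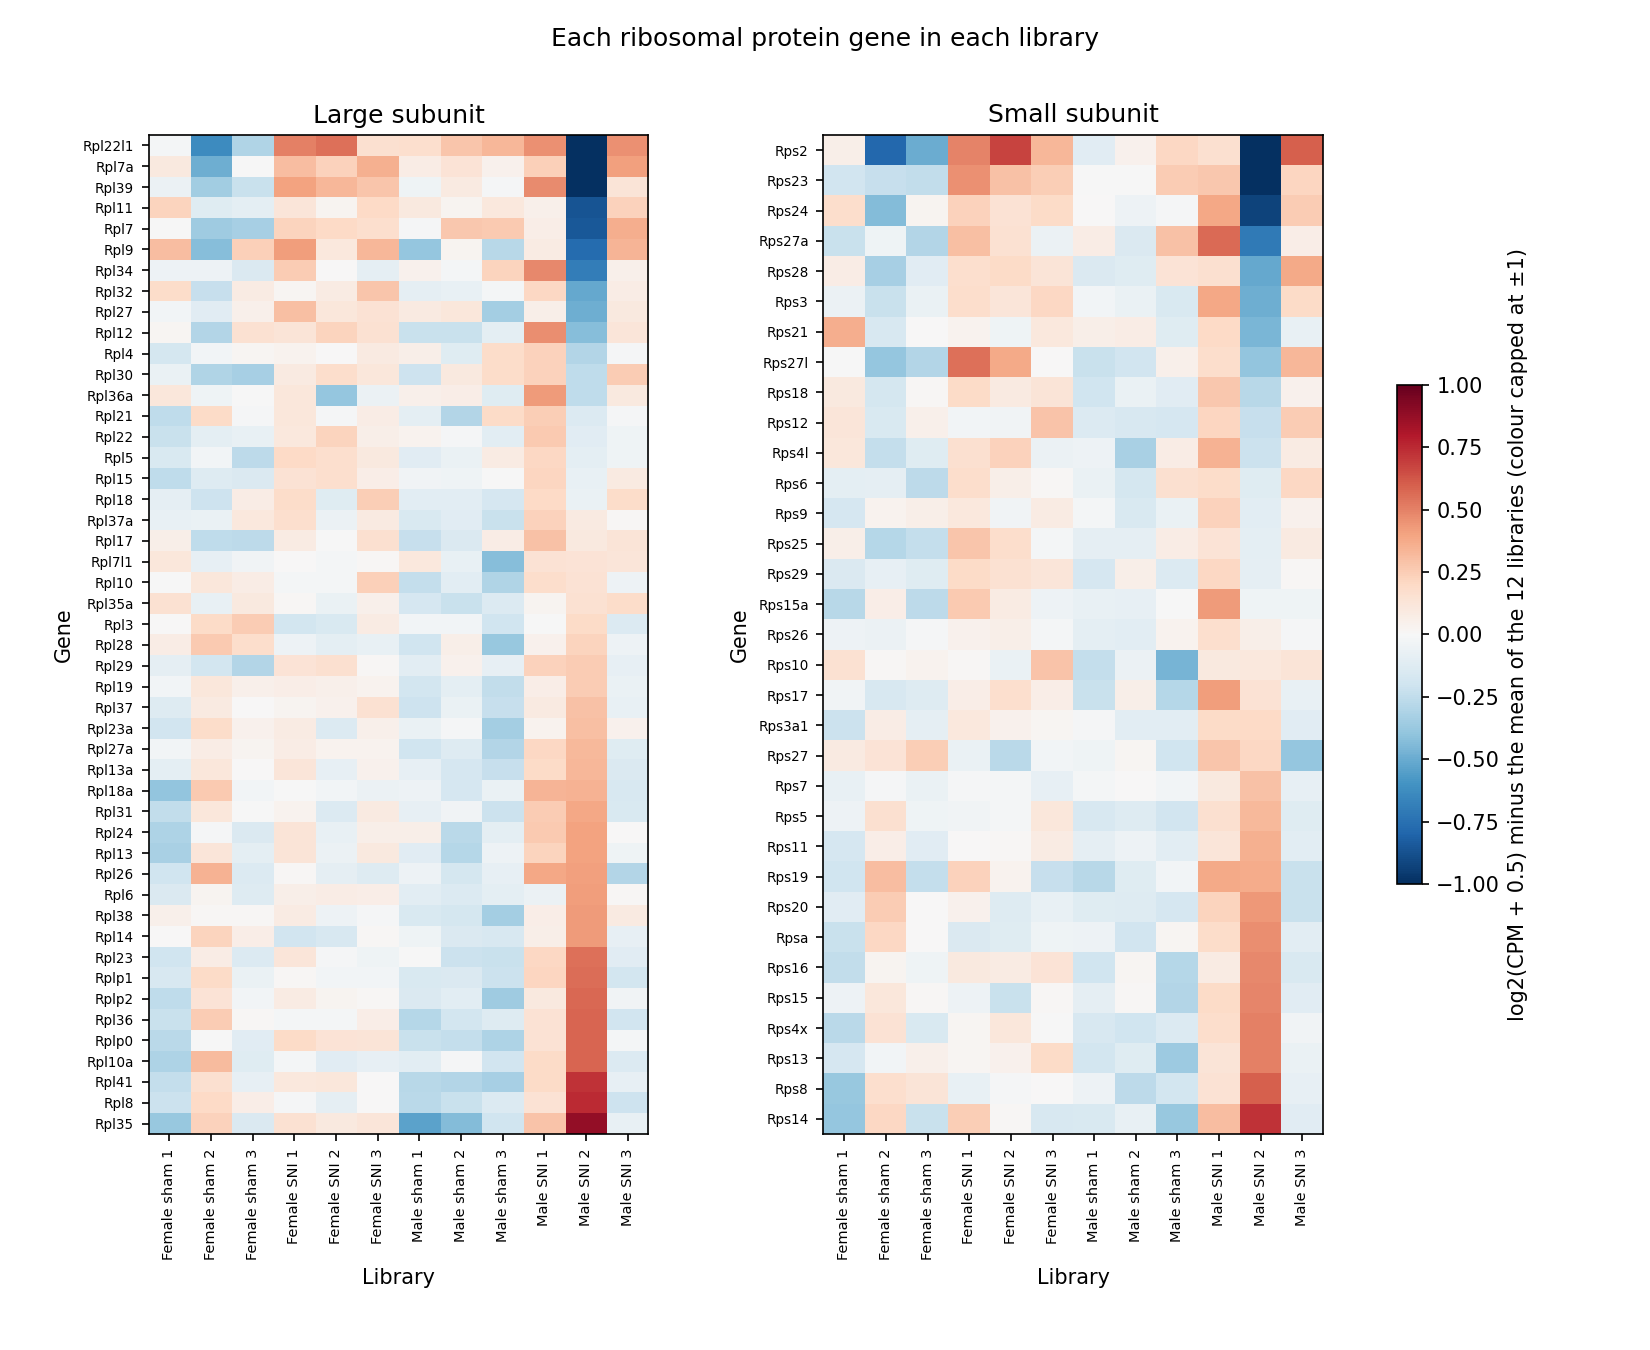
Each member with a mean of at least 5 CPM (rows, sorted by Male SNI library 2 within each subunit) in each library (columns); colour is log2(CPM + 0.5) minus the gene's mean over the 12 libraries, capped at 1 in either direction. The Male SNI 2 column runs from deep blue to deep red, the other columns are paler, and Male SNI 1 is red in nearly all rows.

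Genes that act with the ribosomal proteins were read from lists of the pathway, all for injury averaged over the sexes. Of 50 ribosome biogenesis factors edgeR called none (background 6.52%), and 8 had an unadjusted p below 0.05, all higher (background 18.4%, and 9.78% higher). DESeq2 called 0 (background 9.21%), limma 4 (background 13.4%) and edgeR without the 2 libraries 2 (background 12.1%). These backgrounds hold for the lists that follow as well. The median of the biogenesis factors was 0.10. The most abundant of them, the nucleolar protein nucleolin (Ncl), differed by 0.21 ± 0.07 (adjusted p = 0.12 by edgeR). Of 15 genes of the RNA polymerase I machinery, which transcribes ribosomal RNA, none was called by any of the 3 tools and none had an unadjusted p below 0.05. Their median was 0.06 (-0.022 without Male SNI library 1), and the initiation factor Rrn3 differed by 0.08 ± 0.12. Of 11 host genes of small nucleolar RNAs none was called by any of the 3 tools and none had an unadjusted p below 0.05. Their median was 0.25, and Gas5 differed by 0.12 ± 0.09.

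Among 15 translation factors and related genes with TOP messages 1 rose by edgeR (6.67%, background 6.52%), Eef1b2, the exchange factor that reloads the elongation factor eEF1A with GTP. Eef1b2 measured 207, 241 and 201 CPM in the female sham libraries, 401, 362 and 351 after SNI in females, 238, 235 and 229 in the male sham libraries and 405, 351 and 328 after SNI in males. In both sexes every SNI library was above every sham library. It rose by 0.70 ± 0.08 (adjusted p = 0.00014 by edgeR), a larger change than that of any member with a mean of at least 5 CPM. DESeq2 called 1 of the 15 (background 9.21%), limma 3 (background 13.4%) and edgeR without the 2 libraries 4 (background 12.1%), all higher. The list's median was 0.16, and its most abundant gene, Eef2, differed by 0.19 ± 0.12 (adjusted p = 0.46).

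Of 21 regulators of mTOR and ribosome production 2 rose and 1 fell by edgeR (14.3%, background 6.52%). DESeq2 also called 2 higher and 1 lower (background 9.21%). Limma (background 13.4%) and edgeR without the 2 libraries (background 12.1%) each called 4 higher and 1 lower. Eif4e, the cap-binding protein, rose by 0.38 ± 0.09 (adjusted p = 0.020 by edgeR), and Eif4ebp1, which holds it inactive until mTOR phosphorylates it, rose by 0.95 ± 0.26 (adjusted p = 0.043). Eif4ebp1 measured 7.87, 3.93 and 8.02 CPM in the female sham libraries, 10.2, 13.1 and 19.5 after SNI in females, 6.91, 8.12 and 7.52 in the male sham libraries and 18.9, 7.22 and 12.8 after SNI in males, with Male SNI library 2 inside the sham range. Pdcd4, an inhibitor of the helicase eIF4A that S6 kinase marks for degradation, changed by -0.35 ± 0.09 (adjusted p = 0.041) and was lower in every SNI library than in every sham library of its sex. Of the 12 fits that each left out a library, Eif4e kept its call in 6, Eif4ebp1 in 2 (without Female SNI library 1 or Male SNI library 2) and Pdcd4 in 1 (without Male SNI library 2), with adjusted p up to 0.13. The list's median was 0.06, and Deptor, its most abundant gene, differed by 0.04 ± 0.14.

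The 76 mitochondrial ribosomal protein genes, whose products form the separate ribosome of mitochondria, had a median of -0.0022, which ranged from -0.031 to 0.017 over the alternatives. By edgeR none was called (background 6.52%), and 3 had an unadjusted p below 0.05, all lower (background 18.4%). DESeq2 (background 9.21%) and limma (background 13.4%) each called 1, lower. Of these 76 genes 37 were above 0 (48.7%), against 76 of 82 cytosolic members. The most abundant, Mrps25, differed by -0.00 ± 0.11 (adjusted p = 0.998 by edgeR).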

How the data were processed

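Each library's deposited file holds the authors' raw counts by gene symbol. Build mm10, Bowtie2 and bedtools appear in the submitters' processing notes without versions. The treatment of strand, multiply mapped reads and duplicate molecules is not stated, so overlapping and near-identical genes are uncertain, and the floor of 3 counts covers counting error only. Each file held 23282 rows; 44 extra rows of 35 repeated symbols were summed. Totals were 12476606 to 15520746 counts, with Rn45s kept.

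Genes were filtered with edgeR 4.0.16 filterByExpr (minimum count 10; 15036 kept) and scaled by TMM (factors 0.914 to 1.07). A quasi-likelihood model of the 4 groups was fitted over all 12 libraries together (R 4.3.3), tested 2-sided and adjusted by Benjamini-Hochberg over all genes kept. A call is an adjusted p below 0.05; background is the share of all tested genes called by the same rule. Changes are log2 ± SE. For edgeR this SE was derived from the test, as the absolute log2 change divided by the square root of its F statistic. The code was tested on simulated counts. Alternatives used DESeq2 1.42.0, limma 3.58.1, other scalings, no low-count filter, a replicate block and fits without libraries. Sums of members with copies added to the parent gene were chosen after seeing the data. Positions and promoters came from RefSeq (GRCm38.p6; all 84 members were placed by symbol), transcripts from GENCODE vM21; near-identity means at least 75 of the last 150 bases aligned by blastn 2.17.0 at 98% or more.

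The members, lists and tests were chosen with earlier results of these data known. Members named are those called, the 3 most abundant and the 3 highest and lowest changes of each subunit (mean of at least 5 CPM), stalk proteins, Rpsa, Rps27a, Rpl36a and paralogs with their partners; from each pathway list, called genes and the most abundant one. 1 further list is not reported here. Exceptions are marked in the text. No table of the whole series was used.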

Additional observations from a re-analysis of the deposited data

How the results depend on the processing

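No called member and no median over all members turned its direction under any alternative run. The mitochondrial list's median turned in 6 of 22 alternatives (0.0025 with DESeq2) and that of the RNA polymerase I list in 2. Of the members called for injury averaged over the sexes (1 as reported), DESeq2 gave 2, limma with quality weights 19, no low-count filter 2, the fit without Male SNI library 2 and Female sham library 2 gave 19, and leaving out 1 library at a time gave 0 to 12, with 12 without Male SNI library 2 and 3 without Male SNI library 3. With a replicate block the count was 2. Same-numbered SNI and sham libraries of a sex correlated at -0.15 to 0.19 in their deviations from the group means, over 0.1 in 1 of 6 pairs. Over any 2 groups same-numbered libraries correlated at -0.22 to 0.70, over 0.1 in 4 of 18 pairs. Among these were all 3 of Female sham with Male SNI (0.31, 0.70 and 0.23), although Male SNI library 3 correlated at 0.65 with Female sham library 1. Deviations within a group of 3 sum to 0, so these values cannot show whether equal numbers were paired. For injury in females (0 as reported) limma gave 8, the fit without the 2 libraries 6, the fit on female libraries only 4, and leaving out 1 library 0 to 5, with 5 without Male SNI library 2. For injury in males (0 as reported) DESeq2 and limma gave 4, no filter 1, the fit without the 2 libraries 4, and leaving out 1 library 0 to 7, with 7 without Male SNI library 3. Without 1 library at a time the female median was 0.057 to 0.14, lowest without Female sham library 1. The summed CPM rose when Rn45s was left out of the totals, for the large subunit to 9262 (female sham), 9751 (female SNI) and 8520.4 (male sham), and for the small subunit to 5651 (female sham), 6146 (female SNI), 5380.2 (male sham) and 6407 (male SNI). With pseudogene rows added the large subunit sums were 9179.8 (female sham), 9667 (female SNI) and 8633 (male sham), and on raw totals male sham read 7930.1 (large) and 5007 (small). Of the members that the naming rule picks, 7 turned sign in some fit, none of them called there. Without 1 library at a time Rpl11 gave -0.16 to 0.091, Rpl28 -0.054 to 0.055, Rpl36a -0.096 to 0.079, Rpl7 -0.041 to 0.24, Rps21 -0.16 to 0.0093, Rps27 -0.13 to 0.017 and Rps27a -0.016 to 0.29. With limma Rpl11 read 0.048, Rpl36a 0.077 and Rps21 0.025, and without the 2 libraries Rpl11 read 0.063 and Rpl36a 0.065. With DESeq2 Rpl36a read 0.0013, with RLE factors 0.0013 and with TMM factors from the other genes 0.00043. Rpl14, Rpl7a and Rpl34, named outside the rule, gave -0.050 to 0.075, -0.021 to 0.33 and -0.11 to 0.17 without 1 library at a time. In all, 12 members turned sign in a fit that left out 1 library. The 3 libraries per group limit what can be called.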

Other observations

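Copies of ribosomal protein genes had counts of their own. The 7 pseudogene rows and 2 retrogene rows of member genes were summed apart from the members. Rplp2-ps1 measured 488, 662 and 559.7 CPM in the female sham libraries, 627, 603 and 600.1 after SNI in females, 553, 555 and 506 in the male sham libraries and 651, 799 and 598 after SNI in males, with its change of 0.22 ± 0.10 beside 0.26 ± 0.11 for Rplp2. Rpl37rt, a retrogene of Rpl37, had a mean of 385 CPM against 195 for Rpl37, and their changes were 0.16 ± 0.08 and 0.18 ± 0.08. Rps27rt, a retrogene of Rps27, had a mean of 76.9 CPM against 54.7 for Rps27, and their changes were -0.06 ± 0.10 and -0.07 ± 0.12. For Rpl34 the pseudogene row Rpl34-ps1 read 146 CPM in Male SNI library 2 and 328 in Male SNI library 1. These copies were chosen after their values were seen. No pseudogene or retrogene row was called for injury averaged over the sexes by edgeR, DESeq2 or limma, and 1 of the 9 had an unadjusted p below 0.05 by edgeR. Without Male SNI library 2 and Female sham library 2 edgeR called 1 of the 9 (background 12.1%). When copies were summed with the parent gene, an alternative chosen after seeing the data, Rplp0 remained the only member called.

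For 39 of the 83 members with a transcript, at least 75 of the last 150 bases matched at least 1 other annotated gene at 98% or more. The 41 tested members with a mean of at least 5 CPM and no such gene found had a median change of 0.19, and the 39 with 1 or more had 0.16. Only the end of 1 transcript per member was searched, so the 41 can still have copies. Rplp2 and Rpl37, whose copies Rplp2-ps1 and Rpl37rt are given above, were among them.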
